A study of Mus musculus with 6 samples.

Results

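Integrins are cell-surface receptors built from an alpha and a beta subunit, and the genes described here are the protein-coding genes on autosomes whose symbols begin with Itg. The rule found 30 of the 20665 autosomal protein-coding genes of the GRCm38.p6 RefSeq gene table, and left out 1 X-linked gene with such a symbol. It took every accessible interval that overlapped a gene body or the 20 kb on either side of it, which gave 722 distinct intervals, or 0.223% of the 323483 in the deposited set. Of the 30 genes, 17 encode subunits of matrix-binding integrins and 8 encode leukocyte subunits. Itga4 and Itga2b were kept apart because the first serves both classes and the second is the platelet fibrinogen receptor subunit. Itgb1bp1, Itgb3bp and Itgbl1 carry the symbol without encoding a subunit.

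The intervals came from ATAC-seq, in which a transposase cuts and tags DNA where chromatin is open, of mouse embryonic fibroblasts heterozygous for M2-rtTA and for TetO-Myf6. M2-rtTA is a transactivator that needs doxycycline, and TetO-Myf6 is the myogenic factor Myf6 under its control. In the first group the cells received 2 µg/mL doxycycline plus 3 compounds, namely 5 µM forskolin, 5 µM RepSox and 3 µM CHIR99021. In the second group they received doxycycline alone at the same dose, and in the third iMPC medium with neither. Each of the 3 groups had 2 libraries taken at 24 h, and the medium of all 3 held 10 ng/mL bFGF. Forskolin activates adenylate cyclase, RepSox inhibits the type I TGF-beta receptor and CHIR99021 inhibits GSK3. The labels name no promoter for M2-rtTA, and whether a group's libraries were grown apart is not stated in them. They describe a study of Myf6 in the conversion of fibroblasts to myogenic cells.

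The table used here is a single set joined over the libraries, with a position for each interval and no value per library or group. It can show where chromatin was open in at least some of these fibroblast libraries, and no integrin gene could be compared between treatments. No replicate error and no depth could be computed, so the differences between gene classes given below are descriptions without a test. Chromatin that is open says nothing direct about how much RNA a gene makes.

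Matrix-binding integrins link collagen, laminin, fibronectin and vitronectin outside the cell to talin, kindlin and the actin cytoskeleton inside it, and fibroblasts use them to spread, migrate and pull on matrix. In skeletal muscle the Itga7 and Itgb1 products form the main laminin-binding integrin of the fibre. Leukocyte integrins are built on the Itgb2 or the Itgb7 subunit, are known from blood cells, and bind counter-receptors on other cells such as the ICAMs, VCAM1 and E-cadherin.

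Accessible intervals were found within 1 kb of the start, or of a gene end where no start is listed, of every matrix-binding gene. They were found there at 5 of the 8 leukocyte genes, of which Itgb2, Itgae and Itgad were counted at a gene end. The leukocyte count depended on the window, at 2 of 8 within 500 bp and 7 of 8 within 5 kb, while all 17 matrix-binding genes had an interval in both windows. For all genes the share was computed only within 1 kb, so the counts at 500 bp and 5 kb have no such share beside them. A start-site interval was defined as an interval overlapping the 1 kb on either side of a transcription start listed in the RefSeq promoter table. A start was listed for 22 of the 30 genes, and for the other 8 either end of the gene was used. By this measure 26 of the 30 integrin-named genes (86.7%) had a start-site interval, against 74.4% of all autosomal protein-coding genes. Among all genes in the length range of the matrix-binding class the share was 86.1%, and in that of the leukocyte class 83.7%. The 26 of 30 was thus near the share of genes in those length ranges. The 4 genes without a start-site interval were Itgal, Itgam, Itgb2l and Itga2b, which encode 3 leukocyte subunits and the platelet subunit. A start-site interval of at least 600 bp was present at 23 of the 30, and those of Itgad, Itga9 and Itgbl1 were narrower. It was present at 66.1% of all genes, a share that was not matched for length. Among genes with a listed start alone, 13 of 13 matrix-binding genes and 2 of 4 leukocyte genes had one, against 73.4% of all genes with a listed start. Of all genes counted at either end, 78.4% had one.

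The share of sequence inside intervals, over a gene body with 20 kb on either side, had a median of 13.4% in matrix-binding genes and 7.08% in leukocyte genes. Over all autosomal protein-coding genes the median was 9.56%, with quartiles of 4.79% and 13.7%. Of the matrix-binding genes 14 of 17 lay above that median and none lay below the lower quartile. Of the leukocyte genes 3 of 8 lay above the median and 2 lay below the lower quartile. The ranges overlapped widely, at 6.95% to 21.7% in matrix-binding genes and 1.35% to 20.7% in leukocyte genes.

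**Figure D1:**
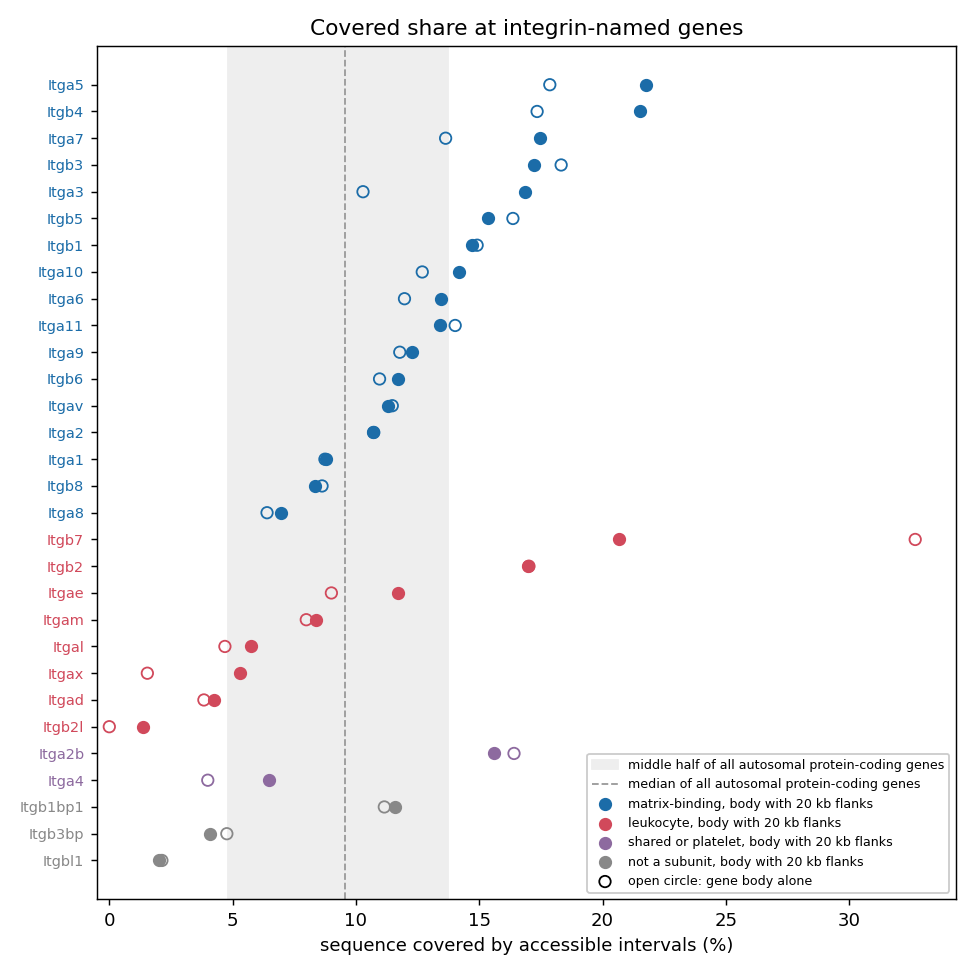
Share of sequence covered by accessible intervals (x axis, %) for each of the 30 integrin-named genes (rows), for the gene body with 20 kb on either side (filled) and the gene body alone (open), coloured by class. The shaded band spans the quartiles of all autosomal protein-coding genes (4.79% to 13.7%) and the dashed line their median (9.56%). The filled points of 14 of 17 matrix-binding genes lie right of the line, and Itgb7 is the leukocyte gene furthest right, at 20.7%.

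Interval density showed the same order, with a median of 2.57 intervals per 10 kb in matrix-binding genes, 1.77 in leukocyte genes and 1.89 in all genes. Matrix-binding genes were longer, with a median length of 75.5 kb against 33.5 kb in leukocyte genes. Each gene was therefore also set beside the genes within 1.5 times its own length. Its covered share was above the median of such genes for 15 of 17 matrix-binding genes and for 3 of 8 leukocyte genes. Among all genes in the length range of the matrix-binding class 86.1% had a start-site interval, and in that of the leukocyte class 83.7% had one.

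The sequences just upstream of 4 listed starts are given as examples. They were chosen by their start-site intervals, so their cover by intervals follows from the choice. Itga3 and Itgb7 are the matrix-binding and the leukocyte gene with the widest interval at a listed start, and Itgam and Itgb2l are the leukocyte genes with a listed start and no interval there. Each sequence is the 250 bases before the listed start, 5′ to 3′ on the strand of the gene, from RefSeq on GRCm38.p6. Capitals mark each CG dinucleotide, the target of DNA methylation in vertebrates.
Itga3, chr11:95076715-95076964, minus strand: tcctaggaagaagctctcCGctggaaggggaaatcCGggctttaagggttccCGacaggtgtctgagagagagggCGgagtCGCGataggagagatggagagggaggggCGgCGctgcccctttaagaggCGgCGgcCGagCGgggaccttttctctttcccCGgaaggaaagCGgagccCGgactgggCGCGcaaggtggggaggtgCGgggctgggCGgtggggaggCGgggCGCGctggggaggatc
Itgb7, chr15:102231936-102232185, minus strand: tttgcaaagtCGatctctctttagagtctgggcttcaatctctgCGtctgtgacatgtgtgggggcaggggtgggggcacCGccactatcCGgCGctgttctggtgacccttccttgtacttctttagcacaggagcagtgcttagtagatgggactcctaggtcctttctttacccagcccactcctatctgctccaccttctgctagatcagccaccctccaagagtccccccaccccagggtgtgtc
Itgam, chr7:128062390-128062639, plus strand: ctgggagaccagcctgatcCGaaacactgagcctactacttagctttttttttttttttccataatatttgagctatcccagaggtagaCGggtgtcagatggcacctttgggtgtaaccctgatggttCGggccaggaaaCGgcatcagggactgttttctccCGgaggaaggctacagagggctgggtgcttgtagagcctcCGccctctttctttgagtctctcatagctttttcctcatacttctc
Itgb2l, chr16:96443615-96443864, minus strand: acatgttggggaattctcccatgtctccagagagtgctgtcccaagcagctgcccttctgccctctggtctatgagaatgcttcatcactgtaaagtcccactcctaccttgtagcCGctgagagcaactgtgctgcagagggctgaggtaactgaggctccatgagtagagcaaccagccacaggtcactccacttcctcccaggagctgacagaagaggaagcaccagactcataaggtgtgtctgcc
The Itga3 sequence holds 22 CG dinucleotides, and all 250 of its bases lie inside a start-site interval of 2094 bp. The Itgb7 sequence holds 5, and 65 of its bases lie inside an interval. The Itgam sequence holds 6 and the Itgb2l sequence 1, and none of their bases lies inside an interval. The listed Itgb7 start lies 1470 bp inside the gene, and the listed Itga3 start 130 bp inside.

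Across the promoters of integrin-named genes, the CpG content and the start-site interval went together. CpG observed over expected compares the CG dinucleotides in the 300 bases around a start with the number its C and G content would give. Its median was 0.504 over the 15 promoters of matrix-binding genes, 0.246 over the 4 promoters of leukocyte genes, and 0.586 over the 20085 promoters of all autosomal genes. Below 0.4 an interval lay within 1 kb of 5 of 9 integrin-named promoters, and of 41.1% of all promoters. Between 0.4 and 0.6 it was 7 of 7, against 85.6% of all, and from 0.6 upward 8 of 8, against 96.3% of all. All 4 leukocyte promoters were in the lowest of these ranges. CpG content thus differed together with accessibility between the classes, and its part in the difference was not tested.

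**Figure D2:**
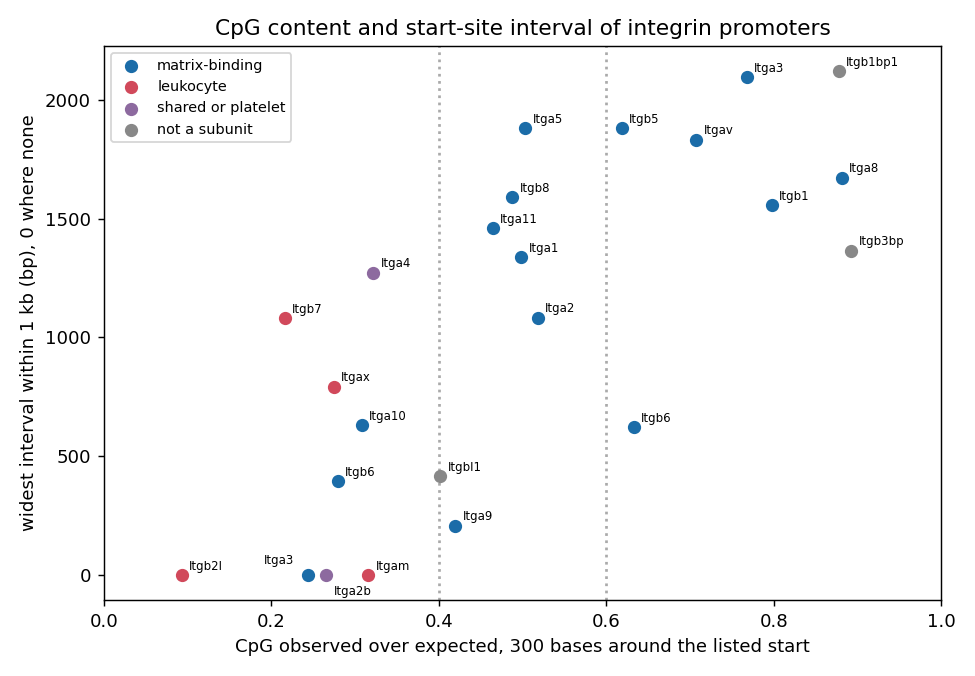
CpG observed over expected in the 300 bases around each listed start (x axis) against the width of the widest interval within 1 kb (y axis, bp, 0 where there is none), 1 point per promoter, coloured by class. Dotted lines stand at 0.4 and 0.6, and every promoter without an interval lies left of 0.4. Of the 9 promoters there, 5 have an interval. They are Itga4 at 1272 bp, Itgb7 at 1080 bp, Itgax at 792 bp, Itga10 at 630 bp and an internal Itgb6 start at 395 bp.

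Itgb1, whose product is the shared beta subunit of most matrix receptors, lies on chromosome 8 from 128685654 to 128733579. Intervals covered 14.7% of it with its flanks, through 23 intervals, 17 of them over the gene body. A 1556 bp interval covered the listed start. The widest interval at any integrin-named gene was also here, 3084 bp wide, from 128742189 to 128745272. It began 8610 bp beyond the end of the gene that lies opposite its start, and it overlapped no other protein-coding gene.

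Among the receptors for RGD-bearing ligands such as fibronectin and vitronectin, all 7 genes had a start-site interval, with a median width of 1671 bp. Itga5, which encodes the alpha subunit of the main fibronectin receptor, had the highest covered share of any integrin-named gene, 21.7%, and exceeded 98.8% of genes of similar length. It lies on chromosome 15 from 103344286 to 103366791, and its start-site interval was 1879 bp wide, from 103365326 to 103367204. A wider interval of 2137 bp lay 3091 bp outside the gene, over or within 1 kb of Zfp385a. Itga5 was highly covered also in sequence that belongs to no other protein-coding gene, at 23.5%.

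The remaining genes of that group ranged down to Itga8. Itgb3 had 17.2%, Itgb5 15.4%, Itgb6 11.7% and Itgav 11.3% of sequence covered. The products of these 4 genes form receptors for vitronectin and for latent TGF-beta. Itgb8, whose product also binds latent TGF-beta with the Itgav subunit, had 8.33%. Itga8, the nephronectin receptor subunit, had 6.95%, the lowest share among matrix-binding genes above only 38.5% of genes of similar length. The widest interval of Itga8 and of Itgb8 was the one at the start, 1671 bp at Itga8 and 1590 bp at Itgb8. Cover of Itgb8 was near the median of genes of similar length, which was 8.99% with flanks. Over the body it was 8.63% against 8.31%. Cover of Itga8 was lower than that of such genes, with a median of 8.35% with flanks, and over the body 6.40% against 8.12%. Itga8 lies on chromosome 2 from 12106632 to 12301985, with its start-site interval from 12300677 to 12302347. Itgb8 lies on chromosome 12 from 119162803 to 119238276, with its interval from 119237705 to 119239294.

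The 4 genes of laminin receptors had a median covered share of 17.2%. Itgb4, known from the hemidesmosomes of epithelia, had 21.5% and exceeded 99.2% of genes of similar length. It lies on chromosome 11 from 115974725 to 116008412. Its widest interval was 1266 bp, ended at 115955861 and lay 18864 bp outside the gene, over or within 1 kb of Sap30bp. Galk1 and H3f3b also lie within the flanks of Itgb4. Counted only outside other protein-coding genes its share was 20.1%. The lower end of Itgb4 was covered by a 911 bp interval, and no start is listed for it.

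Itga7, the alpha subunit of the main laminin-binding integrin of skeletal muscle, had 17.5% covered with flanks, through 23 intervals. Counted with flanks its interval density, 3.55 per 10 kb, was the highest of any integrin-named gene. Over the body alone it was 2.82 per 10 kb, below Itgb7 at 5.74 and Itgb3 at 3.84, among others. The gene lies on chromosome 10 from 128933421 to 128958286. A 1519 bp interval, from 128933314 to 128934832, covered its lower end and was its widest. Of its intervals 7 were over the body and the others in the flanks, which also hold Bloc1s1, Mettl7b and Rdh5. Outside those genes its share was 13.6%. Whether any of these intervals came from the libraries with Myf6 cannot be read from a joined set.

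Itga3, another laminin receptor subunit, had 16.9% covered, and its body alone had 10.3%, with 4 of its 17 intervals. Its 2094 bp start-site interval was the widest at any start of an integrin subunit gene. A second listed start, 7646 bp inside the gene, had no interval within 1 kb, and the nearest was 6009 bp away. Itga6, which pairs with the Itgb1 or the Itgb4 subunit, had 13.4% covered and a 1754 bp interval over its lower end.

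The 4 collagen receptor genes had start-site intervals of 630 bp to 1460 bp. Itga10, known from cartilage, had 14.2% of sequence covered and the 630 bp interval. Itga11, the fibrillar collagen receptor known from fibroblasts, had 13.4% and the 1460 bp interval. Itga2 had 10.7% with a start-site interval of 1082 bp, and Itga1 8.80% with one of 1337 bp. The widest interval of Itga2, 1485 bp, lay over or within 1 kb of Mocs2. Itga1 lies on chromosome 13 from 114958079 to 115101964. Its widest interval, 1829 bp from 115089285 to 115091113, lay over its body, and over or within 1 kb of Pelo.

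Itga9, whose product binds tenascin-C, is the longest matrix-binding gene at 294.3 kb and held 81 intervals, the most of any integrin-named gene. Its covered share was 12.3%. The listed start lies 104983 bp inside the gene, on chromosome 9 at 118711692, and had only a 207 bp interval, 137 bp away. The lower end of the gene, 118606709, was covered by a 1261 bp interval. At Itga9 the narrow start-site width thus belongs to the internal start, and Itga9 is the single matrix-binding gene under 600 bp.

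**Figure D3:**
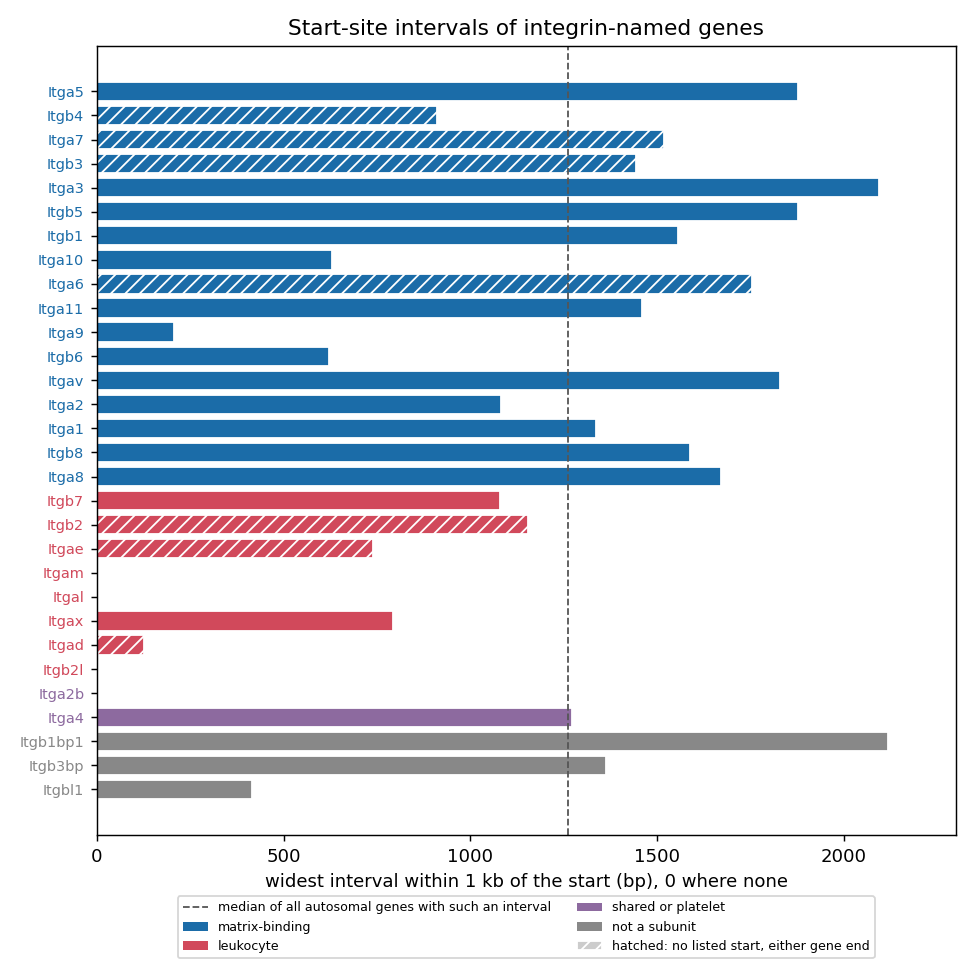
Width of the widest interval within 1 kb of the start (x axis, bp) for each integrin-named gene (rows), coloured by class, with hatching where no start is listed and either gene end was used. The dashed line marks the median of all autosomal protein-coding genes that have such an interval, 1263 bp. Bars are absent for Itgam, Itgal, Itgb2l and Itga2b.

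Covered shares varied widely among the leukocyte genes. Itgb7, Itgb2 and Itgae lay above the median of all genes and the other 5 below it. Itgb7, the beta subunit that pairs with the Itga4 or Itgae product, had 20.7% covered with flanks and 32.7% over its body. The share over its body was above that of 99.7% of the 4554 genes of similar length. It lies on chromosome 15 from 102215994 to 102233405. Of its 18 intervals 10 were over the body. A 1080 bp interval, from 102230566 to 102231645, lay beside the listed start, a 104 bp interval lay over the start, and a 648 bp interval lay at the upper end of the gene. Its widest interval, 2515 bp from 102245669 to 102248183, lay 12264 bp beyond the gene, over or within 1 kb of Rarg, a retinoic acid receptor gene. Outside other protein-coding genes its share was 30.1%.

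Itgb2, which encodes CD18, the beta subunit of LFA-1 and Mac-1, had 17.0% covered both with flanks and over its body. It lies on chromosome 10 from 77530329 to 77565708. No start is listed for it, and a 1156 bp interval, from 77531005 to 77532160, began 676 bp inside its lower end. The widest interval, 2158 bp from 77515344 to 77517501, lay in the flank, over or within 1 kb of Fam207a. Outside other genes Itgb2 had 14.7% covered, above the leukocyte median of 8.89% counted in the same way.

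The 4 alpha subunits that pair with the Itgb2 product had a median covered share of 5.53% and a range of 4.23% to 8.40%. Itgam, which encodes CD11b of Mac-1, had 8.40%, and the interval nearest its listed start was 3618 bp away. Itgal, which encodes the LFA-1 alpha subunit, had 5.76% covered. The nearest interval was 12835 bp from its lower end and 2448 bp from its upper end. Its widest interval, 1580 bp, lay over or within 1 kb of Zfp768. Of its 14 intervals 8 were over the body, and the widest of these was 436 bp.

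Itgax, which encodes CD11c and lies on chromosome 7 from 128129526 to 128150657, had 5.30% covered with flanks and 1.54% over its body. Its 792 bp interval, from 128128960 to 128129751, was its widest and covered the listed start at 128129550, and the single other interval over its body was 100 bp wide. Itgad, which encodes CD11d, lies from 128173933 to 128205504. It had 4.23% covered and a widest interval of 723 bp, from 128190200 to 128190922, and its start-site interval was a 125 bp interval near its upper end. No start is listed for Itgad, so whether that end is its promoter was not analysed here.

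Itgam, Itgax and Itgad lie side by side on chromosome 7, and Itga2 and Itga1 side by side on chromosome 13, so each set shares intervals in its flanks. Itgam and Itgax shared 5 intervals, Itgax and Itgad 3, and Itga2 and Itga1 2. Over the 182.9 kb of the leukocyte cluster with flanks 28 intervals covered 6.18%, at 1.53 per 10 kb. Over the 308.9 kb of the Itga2 and Itga1 region 63 intervals covered 9.65%, at 2.04 per 10 kb. The alpha subunits of the cluster are related in sequence, and reads that match several of them may have been dropped or split, which was not tested.

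**Figure D4:**
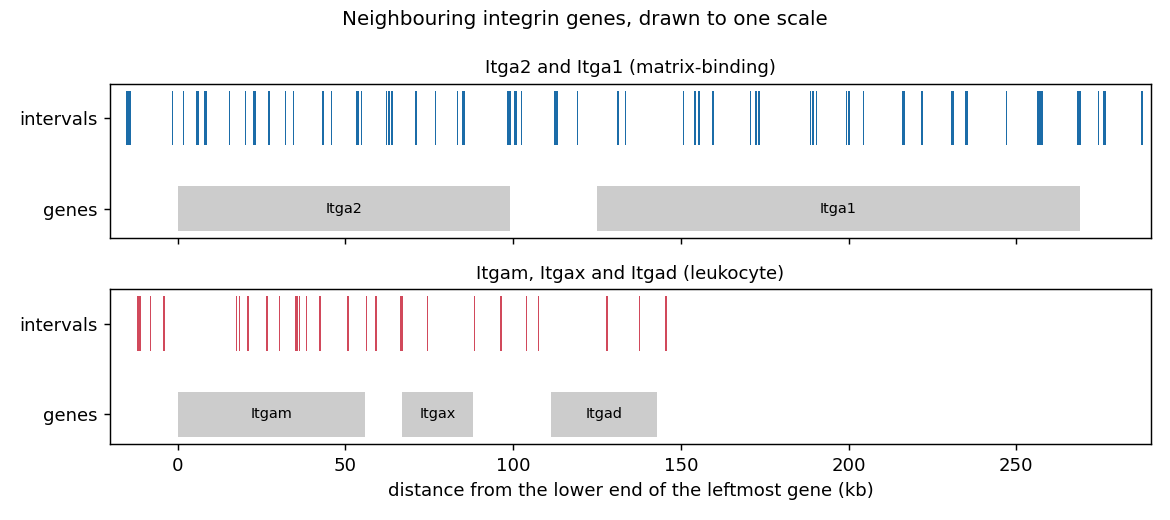
Accessible intervals (coloured ticks) and gene bodies (grey) at the neighbouring genes Itga2 and Itga1 (top) and Itgam, Itgax and Itgad (bottom), both on the same scale in kb from the lower end of the leftmost gene. The top region holds 63 intervals over 308.9 kb and the bottom region 28 over 182.9 kb.

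Itgae, which encodes CD103 and binds E-cadherin with the Itgb7 subunit, had 11.7% covered, and a 739 bp interval lay 556 bp outside its upper end. It lies on chromosome 11 from 73090505 to 73147449, and its widest interval, 1816 bp from 73160089 to 73161904, lay over or within 1 kb of P2rx5. No start is listed for Itgae, and the interval nearest its lower end was 1876 bp away. Whether its upper end is its promoter was not analysed here.

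Itgb2l, a paralogue of Itgb2, was the only integrin-named gene with no interval over its body, against 19.1% of all autosomal protein-coding genes. Among the genes of similar length 9.13% had none. It lies on chromosome 16 from 96422288 to 96443664, and with its flanks wholly within Igsf5. Its 3 intervals lay in the lower flank and covered 1.35%, the widest being 340 bp, from 96402501 to 96402840. The interval nearest its listed start was 23873 bp away, outside the flanks. The longest stretch without an interval there was 55.3 kb.

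Itga4, whose product pairs with the Itgb1 or Itgb7 subunit and binds fibronectin and VCAM1, had a 1272 bp interval over its listed start. Only 6.48% of its sequence was covered with flanks and 3.99% over its body. Itga2b, the platelet subunit that pairs with the Itgb3 product, had the opposite pattern. The interval nearest its listed start was 2187 bp away, and 15.6% of its sequence was covered. Its widest interval, 2640 bp, lay over or within 1 kb of Fam171a2, and outside the neighbouring genes 10.8% was covered.

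Itgb1bp1, an adaptor that binds the Itgb1 tail, had a 2120 bp start-site interval that also lay over or within 1 kb of Cpsf3. Of its sequence 11.6% was covered. Itgb3bp, a centromere protein gene, had 4.09% and a 1364 bp start-site interval that also lay over or within 1 kb of Efcab7. Itgbl1, which encodes a secreted protein with EGF-like repeats, is 318.9 kb long and had 2.02% covered with flanks, a 415 bp interval at its start, and a stretch of 86.0 kb without an interval.

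Read by receptor pairs, both genes had a start-site interval for every matrix-binding receptor named above. Among leukocyte pairs, both genes had one for Itgb2 with Itgax, Itgb2 with Itgad, Itgb7 with Itgae and Itgb7 with Itga4. For LFA-1, Itgb2 had one and Itgal none, and for Mac-1, Itgb2 had one and Itgam none. For the pair of Itgb3 and Itga2b, Itgb3 had a 1445 bp interval over its lower end and Itga2b none. The missing start-site intervals were thus all in genes of alpha subunits, apart from Itgb2l. No start is listed for Itgb2, Itgad or Itgae, so in these pairs they were counted at a gene end. For Itgad and Itgae it was the upper end, and neither had an interval within 1 kb of its lower end. Whether those upper ends are starts was not analysed here.

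Cover differed by distance from the listed start. Within 1 kb of it the median share covered was 68.6% over the 13 matrix-binding genes, 19.8% over the 4 leukocyte genes and 52.4% over all 16457 genes with a listed start. From 1 to 5 kb into the gene it was 11.6%, 0 and 2.47% in the same order. From 5 to 20 kb into the gene it was 10.9%, 1.33% and 7.25%. From 1 to 5 kb upstream it was 6.42%, 3.80% and 0, and from 5 to 20 kb upstream 15.1%, 8.45% and 7.11%. The median of matrix-binding genes was thus above that of all genes in all 5 windows. That of leukocyte genes was above it in both upstream windows and below it in the others, though 4 genes give only a coarse median. All genes were not matched for length in this comparison.

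**Figure D5:**
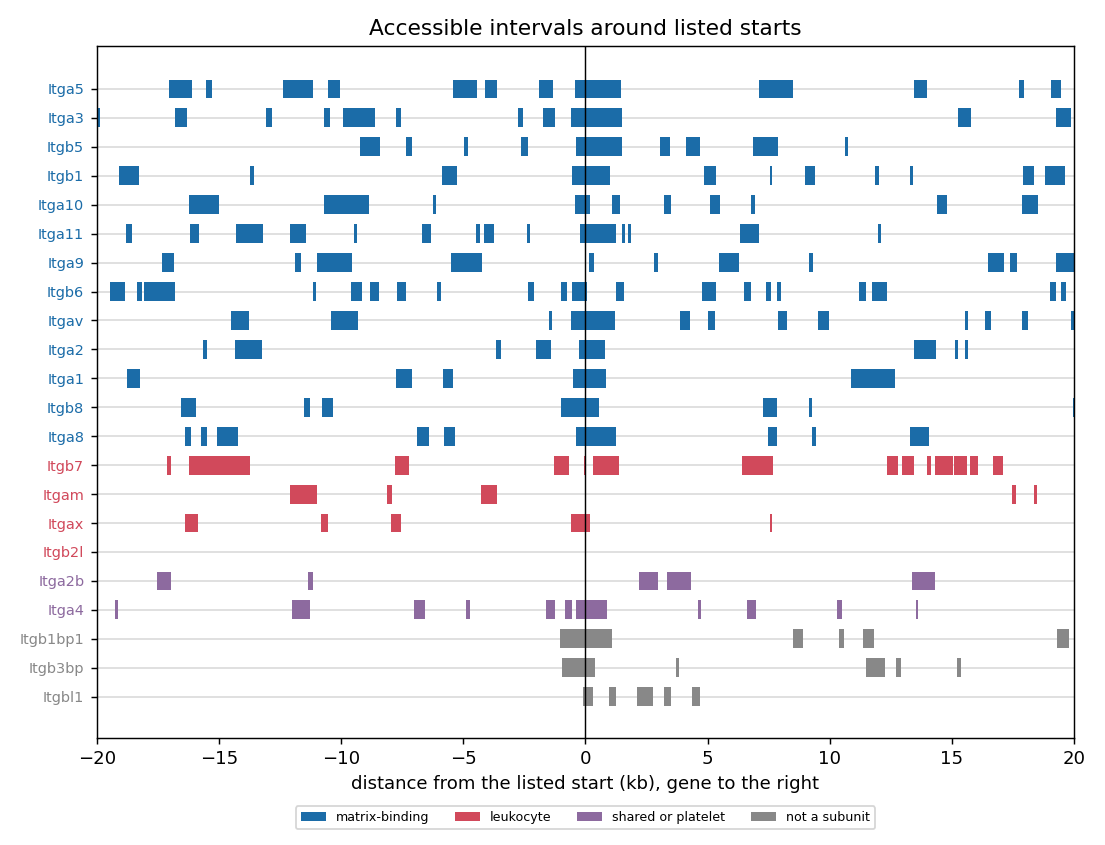
Accessible intervals (bars) within 20 kb of the listed start of 22 integrin-named genes (rows), with distance in kb on the x axis and the gene to the right of 0, coloured by class. Where a gene has more than 1 listed start, the outermost is shown. A bar overlaps the line at 0 in 12 of the 13 matrix-binding genes, the nearest bar of Itga9 lies 137 bp from it, and Itgb2l has no bar.

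Short motifs were counted in the 300 bases around the 24 listed starts, on both strands. The general E-box CANNTG, the letters bound by basic helix-loop-helix factors such as Myf6, was in 20 of 24 promoters, against 68.7% of all 20085. Its myogenic form CAGCTG, which is also counted among the CANNTG matches, was in 9 of 24, against 15.6% of all. The 9 were Itga1, Itga2b, Itga4, Itga5, Itga9, Itgax, Itgb1bp1, Itgb2l and Itgb5, of which Itga2b and Itgb2l had no start-site interval. The ETS core GGAAGT was in 4 of 15 matrix-binding and 3 of 4 leukocyte promoters, against 25.0% of all. The GC box GGGCGG was in 7 of 15 matrix-binding and 1 of 4 leukocyte promoters, against 47.0% of all. The AP-1 letters TGANTCA were in 3 of 24, against 7.06% of all, and the cAMP response element TGACGTCA was in none, against 2.30% of all. The TEAD letters GGAATG were in 2 of 24, against 13.4% of all, and the RUNX letters TGTGGT were in 3 of 24, against 14.8% of all. These are matches of letters and do not show binding.

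The genes that act with integrins were described from lists of ligands and of the proteins inside the cell. These lists, and those of cell type markers, were set beside all genes and not beside genes of similar length. All 15 focal adhesion genes had a start-site interval, against 74.4% of all autosomal protein-coding genes, and their median covered share was 18.1%, against 9.56% of all genes. Those with the most intervals, a number that was not set against gene length, were Tln2, Tns1 and Ptk2. Tln2, a talin gene, had 102 intervals and the lowest covered share of the list, 11.1%. Tns1, a tensin gene, had 87 intervals and 18.1% covered, and Ptk2, the focal adhesion kinase gene, had 72 and 11.8%. All 13 matrix ligand genes had a start-site interval too, with a median share of 17.4%. Lama2 had the most intervals, 82, and the lowest covered share of these ligands, 4.96%. Fbn1 had 70 intervals and 14.3% covered, and Col4a1 61 and 20.4%. Of the 7 ligands on cell surfaces 6 had one, with a median share of 14.3%, and Icam2 had none. Cdh1, the E-cadherin gene, had 25 intervals and 10.4% covered, Icam1 18 and 16.5%, and Vcam1 16 and 14.2%.

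Of 10 genes for integrin signalling in blood cells 8 had a start-site interval, near the 74.4% of all genes, and the exceptions were Lcp2 and Vav1. Their median covered share was 8.25%, against 9.56% of all genes. Skap1 held 67 intervals with 7.69% covered, Skap2 40 with 8.22% and Apbb1ip 38 with 9.84%. Markers of the labelled cell type, fibroblasts, had a start-site interval at 9 of 9 and a median share of 14.7%. Fbn1 had the most intervals among them, 70, and Col1a2 and Pdgfrb had 30 each. Among 9 matched blood cell markers 7 had a start-site interval, with a median share of 10.5%, and the defining markers Ptprc and Cd3e had none. Csf1r had 25 intervals with 16.2% covered, Laptm5 17 with 11.6% and Ptprc 14 with 3.70%. Set beside the 74.4% of all genes, start-site intervals at so few markers separate these cell types poorly. The shares for blood cell genes stand beside those of the leukocyte integrins, and a contribution of blood cells to these cultures was not tested.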

How the data were processed

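Per the labels' protocols, ATAC-seq libraries were made with an Omni-ATAC protocol. The submitters' processing notes name BWA, MACS2, DESeq2 and GRCm38.p6, and give neither versions nor roles. The authors annotated a set of consensus peaks with HOMER annotatePeaks and GENCODE vM23, per the file headers. How peaks were called, filtered and joined was not given in the sources used here. Positions in the deposited table are 1-based. Its score is 0 throughout, so no depth, precision or comparison of groups could be computed, and a wide interval may join peaks of several libraries.

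Genes came from the RefSeq table of GRCm38.p6, which has no strand. Starts came from the RefSeq promoter table for 22 of 30 members. Overlaps of at least 1 bp counted, and bases were counted once. Similar length meant within 1.5 times. Every member is named, with full positions for the 3 most and 3 least covered of each class. From each list of other genes, up to 3 with the most intervals and all without a start-site interval are named, and 1 result that the rule would name is not reported here. Members, classes and lists were chosen with earlier results of these data known. Counting was tested on simulated data. Alternatives covered the flank, start window, minimum width, overlap rule, class membership and pooling. Python 3.11.15, numpy 2.4.6, pandas 2.3.3 and matplotlib 3.10.9 were used.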

Additional observations from a re-analysis of the deposited data

How the results depend on the processing

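The median covered share stayed higher in matrix-binding than in leukocyte genes under all 8 alternatives, by 3.32 to 7.32 percentage points against 6.35. The smallest difference came from pooling the sequence of a class, and counting only sequence outside other protein-coding genes gave 4.17, where Itgb2l drops out because it has no such sequence. With intervals of at least 300 bp the density was 1.48 per 10 kb in matrix-binding and 0.931 in leukocyte genes, and there were 428 distinct intervals. Gene bodies alone held 479 intervals. All 17 matrix-binding genes had a start-site interval within 500 bp and within 5 kb. Leukocyte genes had 2 within 500 bp and 7 within 5 kb, so the count of 5 rests on the window chosen. No share of all genes was computed for those windows. Depth per library is unknown, so a gene without an interval may hold signal below the threshold used for calling. No paired analysis was possible because no value belongs to a library.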
